A study of Rattus norvegicus with 12 samples.

Results

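The genes of the pore-forming subunits of AMPA receptors (*Gria1*, *Gria2*, *Gria3* and *Gria4*) and of kainate receptors (*Grik1*, *Grik2*, *Grik3*, *Grik4* and *Grik5*) were read by gene symbol from RNA sequencing counts of rat striatum. All 9 genes, 4 of AMPA and 5 of kainate receptors, were present among the 17337 genes of the count table. They were chosen by family and not by their values.

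AMPA and kainate receptors are ionotropic glutamate receptors, channels that open when glutamate binds. AMPA receptors carry most of the fast excitatory current at synapses from cortex and thalamus onto striatal projection neurons. The subunit encoded by *Gria2*, whose transcript is edited at the Q/R site, keeps an AMPA receptor nearly impermeable to calcium, and receptors without it are well known from work on psychostimulant craving. Kainate receptors act on both sides of the synapse and mainly adjust transmission. The subunits of *Grik1*, *Grik2* and *Grik3* can form channels by themselves, whereas those of *Grik4* and *Grik5* bind glutamate with high affinity and need one of the former as a partner.

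Each library came from the whole striatum of 1 rat labelled WT. The methods describe adult male Sprague–Dawley rats that self-administered methamphetamine (MA) intravenously in short daily sessions on a fixed-ratio schedule for 16 days and were kept when lever pressing was stable. Of these, 4 rats were sampled after 12 h of abstinence (MA12) and 4 after 24 h (MA24). The labels call 4 further rats non-addicted, also with 16 days of MA self-administration, a group that the methods do not define. No samples labelled as the saline (S) or MA (M) groups of the methods were analysed here, and whether the non-addicted rats belong to a group of the methods is not given in the sources used here. The rats described were all male. The time of day at sampling, which the 12 h between MA12 and MA24 would shift if sessions were held at one hour, cannot be told apart from the length of abstinence. The numbers of 2 of the 4 MA12 rats and of all 4 MA24 rats carry a suffix N, those of the non-addicted rats do not, and what N means is not given in the sources used here.

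Total counts lay between 17908962 and 23850284 per rat. The 12 markers of striatal projection neurons were all measured, with a summed level of 15878 to 20682 CPM (TMM-scaled counts relative to the library total) per rat. The markers of cortical excitatory neurons (7 of 8 in the table) summed to only 14.8–27.6 CPM. The 7 thalamic markers summed to 39.5–77.1 CPM in MA12, 35.5–42.7 CPM in MA24 and 35.4–93.0 CPM in non-addicted rats. The main axis of variation, the first principal component over 10756 genes with the members left out, held 26.7% of the variance and ran from −27.4 to −5.33 in MA24, from 2.92 to 19.2 in MA12 and from −6.64 to 10.3 in non-addicted rats, with MA24 rat 14N farthest out. Levels below are CPM, which are not adjusted for transcript length, so they were compared between rats and not between genes.

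Between 12 and 24 h of abstinence, the kainate receptor gene *Grik3* was the only member that met both thresholds of a differentially expressed gene. It was lower in MA24 than in MA12, with a log2 fold change (log2FC) of −1.01 ± 0.20 (SE). *Grik5*, also a kainate receptor gene, was higher, with a log2FC of 0.51 ± 0.11, past the limit on the adjusted p but not that on the fold change. A differentially expressed gene (DEG) had a Benjamini-Hochberg adjusted p below 0.05 in edgeR's quasi-likelihood test and a fold change (FC) of at least 1.5. All 9 members entered this test, and 1 was a DEG (0 higher, 1 lower), beside 2.45% of the 10754 genes tested (79 higher, 185 lower). At an adjusted p below 0.05 with any FC there were 2 members, beside 5.16% of all genes tested. The levels of 4 members (*Gria1*, *Gria3*, *Grik3* and *Grik5*) did not overlap between the groups, beside 15.6% of all genes tested. The log2FC was below 0 for 8 of the 9 members and for 51.7% of all genes tested, with medians of −0.14 and −0.02. In tissue such as this, fewer cells of a type and less RNA per cell cannot be told apart.

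**Figure D1:**
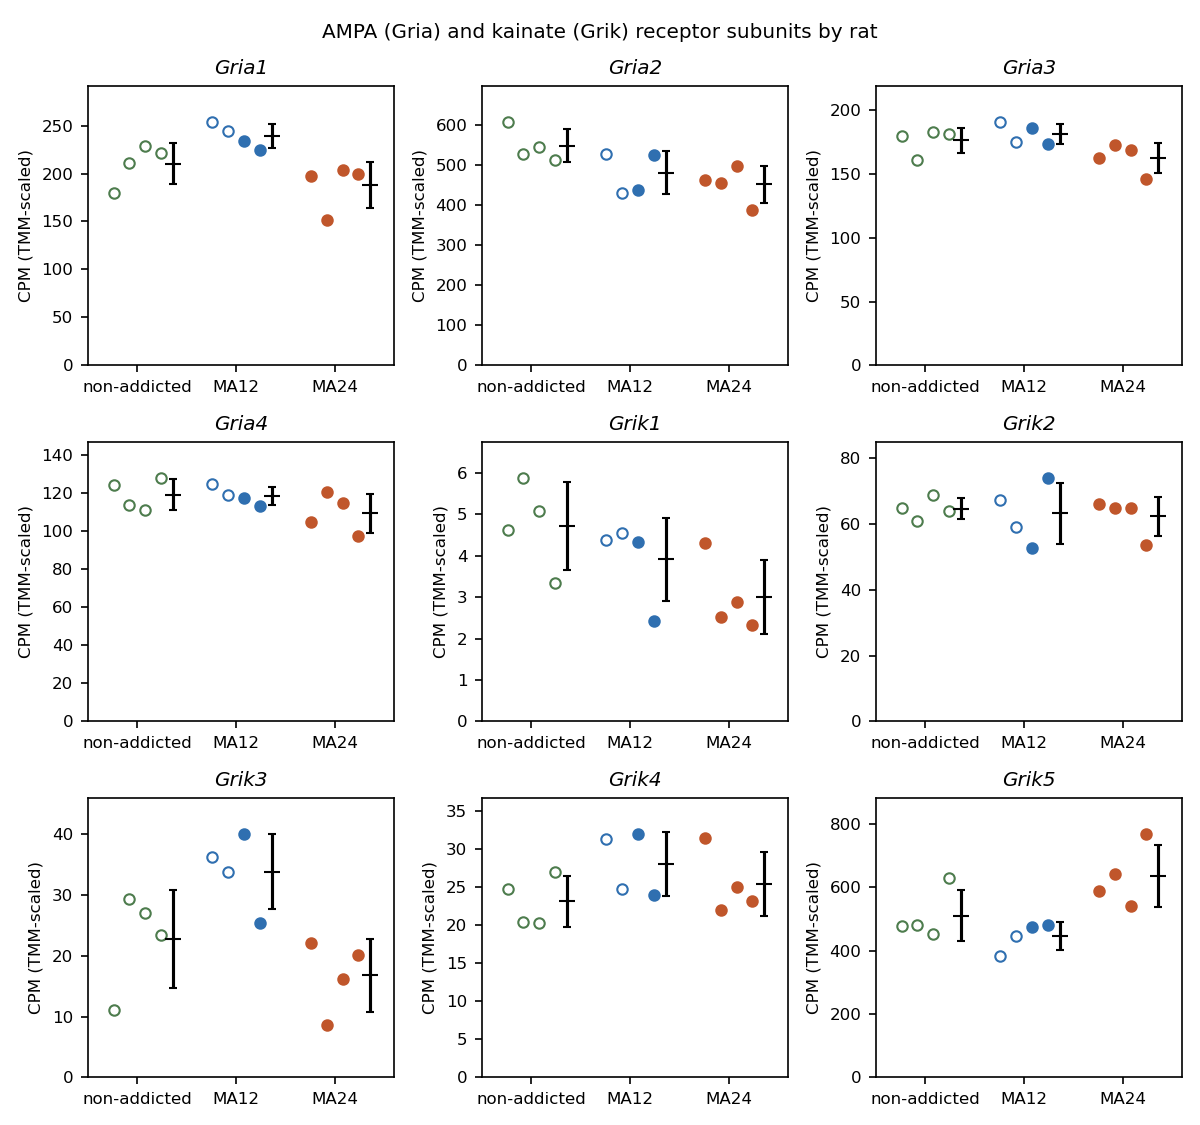
Level of each subunit gene in CPM (linear axis from 0) in the 4 non-addicted, 4 MA12 and 4 MA24 rats. Each point is 1 rat (filled where the rat number carries the suffix N), and the black bar beside each group is the mean ± SD. All 4 MA24 rats lie below the MA12 rats for *Grik3* and *Gria1* and above them for *Grik5*.

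*Grik3* encodes a kainate receptor subunit with low glutamate affinity that can form channels alone. Its level was 36.2, 33.8, 39.9 and 25.3 CPM in the MA12 rats 21, 31, 4N and 7N. In the MA24 rats 9N, 14N, 15N and 16N it was 22.2, 8.68, 16.1 and 20.1 CPM. Every MA24 rat was thus below every MA12 rat, and rat 14N was the lowest of all 12. The means were 33.8 ± 6.19 CPM (SD, n = 4) and 16.8 ± 5.94 CPM (SD, n = 4). The adjusted p was 0.0103 in edgeR's test, the 77th smallest p of the 10754 genes, and the two-sided exact permutation test over the 70 groupings gave p = 0.0286, the smallest p it allows. The permutation test gives this p to every gene whose groups do not overlap. Without rat 14N the log2FC was −0.80 (adjusted p = 0.00852, edgeR). When the suffix N entered a fit of all 12 rats as a covariate, the log2FC was −0.97 and the adjusted p 0.148 (edgeR), so that the call was lost. The fit of all 12 rats without the covariate gave an adjusted p of 0.0293 (edgeR). Only MA12 holds rats with and without the suffix, 2 of each, so the effect of the suffix was estimated from these. Restricted to rats with the suffix (2 MA12, 4 MA24), the log2FC was −0.95 with an adjusted p of 0.0209.

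The non-addicted rats 9, 11, 12 and 13 had *Grik3* levels of 11.1, 29.4, 27.1 and 23.4 CPM. Rat 9 lay among the MA24 rats, rat 13 between the MA24 and MA12 ranges, and rats 11 and 12 inside the MA12 range. From high to low the group order was therefore MA12, non-addicted and MA24, in which only the outer pair differed past the threshold. The log2FC was −0.58 ± 0.21 for non-addicted vs. MA12 (adjusted p = 0.245, edgeR) and 0.43 ± 0.25 for non-addicted vs. MA24 (adjusted p = 0.372, edgeR). These values rested in part on the lowest rats. Without non-addicted rat 9 they were −0.34 and 0.66, and the latter was 0.22 without MA24 rat 14N and 0.29 without non-addicted rat 11.

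*Grik5* encodes a high-affinity subunit that needs a partner to form a channel. Its level was 383, 446, 476 and 481 CPM in the MA12 rats 21, 31, 4N and 7N. It was 590, 644, 540 and 767 CPM in the MA24 rats 9N, 14N, 15N and 16N. Every MA24 rat was above every MA12 rat. The FC was 1.42, below the limit of 1.5, and edgeR's test gave an adjusted p of 0.0167. The two-sided exact permutation test gave p = 0.0286, which only repeats that the groups did not overlap. The adjusted p rose above 0.05 without MA24 rat 16N, the highest (0.0579, log2FC 0.41), restricted to rats with the suffix N (0.113, log2FC 0.42) and with the suffix as a covariate (0.179, log2FC 0.40). Non-addicted rats 9, 11, 12 and 13 had 478, 483, 453 and 629 CPM. Of these, 3 lay within or just above the MA12 range and rat 13 lay within the MA24 range. The log2FC was 0.19 ± 0.12 for non-addicted vs. MA12 (adjusted p = 0.544) and −0.32 ± 0.12 for non-addicted vs. MA24 (adjusted p = 0.198). Without rat 13 the latter was −0.44 with an adjusted p of 0.0443 (edgeR), the only 1 of 16 other settings below 0.05. Over these settings the log2FC for non-addicted vs. MA24 ranged from −0.44 to −0.09, with adjusted p (edgeR and DESeq2) from 0.0443 to 0.978.

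The 250 bases upstream of the annotated gene start were read for the genes with an adjusted p below 0.05 for MA24 vs. MA12, to show the regulatory sequence next to them. They come from RefSeq promoters of the GRCr8 assembly, whereas the counts were made on rn6. The table held 6 of the 9 members (*Gria4* and the 5 kainate receptor genes). Capitals mark the GC box, GGGCGG or CCGCCC, the core motif of Sp-family factors, and both sequences run 5′ to 3′ on the gene's strand.
Grik3, chr5:143052192-143052441 (+): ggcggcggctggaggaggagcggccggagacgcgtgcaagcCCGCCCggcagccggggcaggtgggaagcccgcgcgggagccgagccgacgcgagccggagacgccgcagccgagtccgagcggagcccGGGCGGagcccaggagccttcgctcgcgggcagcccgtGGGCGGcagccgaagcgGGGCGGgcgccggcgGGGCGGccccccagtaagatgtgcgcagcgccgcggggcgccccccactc
Grik5, chr1:89794910-89795159 (−): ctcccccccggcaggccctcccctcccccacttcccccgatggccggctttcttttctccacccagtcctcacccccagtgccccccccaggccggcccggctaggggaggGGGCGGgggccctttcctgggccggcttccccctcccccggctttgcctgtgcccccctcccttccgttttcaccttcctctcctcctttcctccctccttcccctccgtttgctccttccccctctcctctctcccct

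The stretch of *Grik3* was 81.6% G and C with 41 CpG dinucleotides and 5 GC boxes. That of *Grik5* was 70.8% G and C with 10 CpG dinucleotides and 1 GC box. Over the 33465 RefSeq promoters of the same length the median was 51.2% G and C with 5 CpG dinucleotides, and 30.5% held a GC box. Among the 6 members in the table only these 2 held one. The full cAMP response element TGACGTCA, which binds CREB, was in 0 of the 6 and in 1.59% of all promoters. The half-site, TGACG or CGTCA, was in 1 of the 6 and in 18.2% of all promoters. The EGR motif, GCGTGGGCG or CGCCCACGC, was in 0 of the 6 (0.478% of all promoters), and the E-box CACGTG in 0 of the 6 (5.59%). Both strands were searched, and a match in letters was not tested as a binding site.

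*Grik1*, *Grik2* and *Grik4* had an adjusted p above 0.05 for MA24 vs. MA12. *Grik1*, whose subunit can form channels alone, was low in all groups, at 2.43–4.55 CPM in MA12, 2.32–4.30 CPM in MA24 and 3.33–5.87 CPM in non-addicted rats (43 to 124 counts per library). Its log2FC of −0.38 ± 0.28 for MA24 vs. MA12 (adjusted p = 0.418, edgeR) had the largest SE of the members. *Grik2*, the main low-affinity subunit of forebrain neurons, was at 52.8–73.9 CPM in MA12 and 53.6–66.3 CPM in MA24. Its log2FC of −0.02 ± 0.12 was the smallest in size (adjusted p = 0.946). *Grik4*, the other high-affinity subunit, was at 24.0–31.9 CPM in MA12 and 21.99–31.5 CPM in MA24, with a log2FC of −0.14 ± 0.13 (adjusted p = 0.560).

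Among the AMPA receptor genes, all 4 had a log2FC below 0 for MA24 vs. MA12, with a median of −0.14, and 0 passed an adjusted p of 0.05. *Gria1*, whose subunit is inserted into synapses upon activity, came closest. It was at 253, 244, 234 and 225 CPM in the MA12 rats 21, 31, 4N and 7N. In the MA24 rats 9N, 14N, 15N and 16N it was at 197, 152, 203 and 200 CPM. The groups did not overlap, and rat 14N was again the lowest. The log2FC was −0.34 ± 0.10, for which edgeR's test gave an adjusted p of 0.0585. The two-sided exact permutation test gave p = 0.0286, which only repeats the lack of overlap. The adjusted p fell below 0.05 under 5 of 17 other settings, among them DESeq2 (0.0245). It was 0.173 without rat 14N (log2FC −0.26), 0.244 with the suffix N as a covariate and 0.342 restricted to rats with the suffix.

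*Gria2*, which sets the calcium permeability of the receptor, was at 528, 431, 439 and 526 CPM in the MA12 rats and at 464, 456, 499 and 388 CPM in the MA24 rats, in the same order. These ranges overlapped, and the log2FC was −0.09 ± 0.11 (adjusted p = 0.642, edgeR). *Gria3*, a partner of the *Gria2* product in many neurons, was at 174–190 CPM in MA12 and 146–173 CPM in MA24. Its groups were apart by about 1 CPM, and the log2FC was −0.16 ± 0.09 (adjusted p = 0.316, edgeR). *Gria4*, whose subunit is known for fast gating, was at 113–125 CPM in MA12 and 97.6–120 CPM in MA24, with a log2FC of −0.12 ± 0.10 (adjusted p = 0.484).

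**Figure D2:**
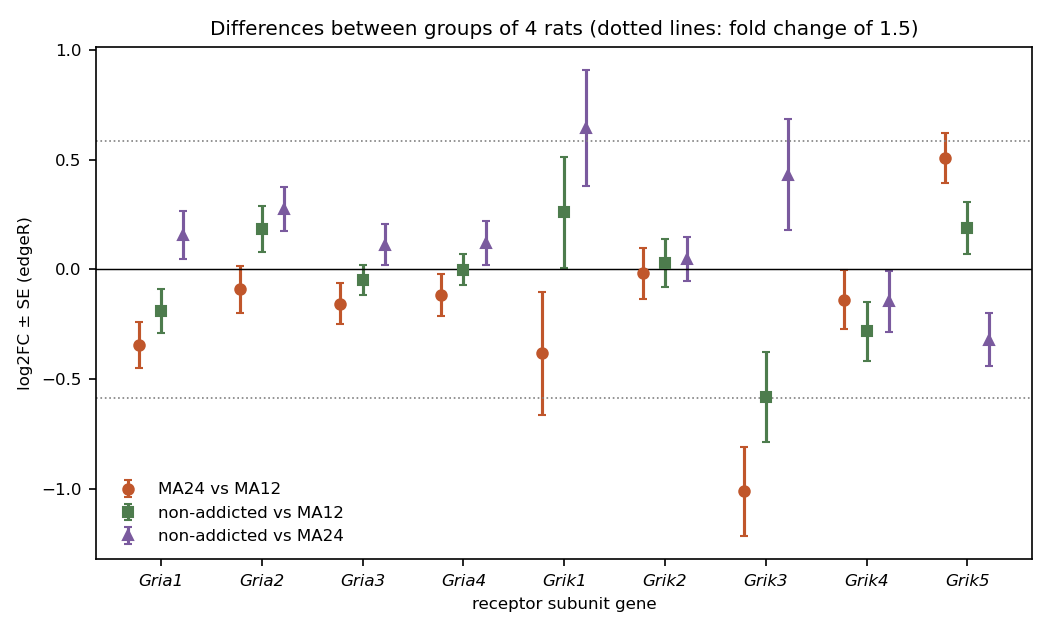
Log2 fold change ± SE (edgeR) of each subunit gene in the 3 comparisons of 4 rats against 4, with dotted lines at an FC of 1.5 in either direction. *Grik3* in MA24 vs. MA12 (−1.01) is the point farthest from 0, and *Grik5* is the only member above 0 in that comparison.

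Both comparisons with the non-addicted rats share the MA12 or MA24 rats with the comparison above and with each other. They ask whether the receptor genes differ between rats labelled non-addicted and rats in abstinence. For non-addicted vs. MA12, 7 of the 9 members were tested, since *Gria3* and *Gria4* fell among the 15% of genes with the lowest variance. No member was a DEG with edgeR or with DESeq2, 2 had an unadjusted p below 0.05 (*Grik3* and *Grik4*; 12.3% of genes did), and 0.251% of the 10758 genes tested were DEGs (11 higher, 16 lower). An adjusted p below 0.05 with any FC was reached by 0 members and by 0.27% of genes, and non-overlapping levels by 0 members and 7.1% of genes. Non-addicted rats had 20.2–27.0 CPM of *Grik4*, with a log2FC of −0.28 ± 0.13 (adjusted p = 0.397, edgeR). *Gria1* was at 180–229 CPM in non-addicted rats, with a log2FC of −0.19 ± 0.10 (adjusted p = 0.462). For *Gria2* the log2FC was 0.18 ± 0.11 (adjusted p = 0.512). *Grik1* (0.26 ± 0.25) and *Grik2* (0.03 ± 0.11) had adjusted p of 0.730 and 0.945. From the fit without the variance filter, *Gria3* had a log2FC of −0.05 ± 0.07 and *Gria4* of −0.00025 ± 0.07.

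For non-addicted vs. MA24, all 9 members were tested and 0 were DEGs with edgeR or DESeq2, beside 0.456% of the 10744 genes tested (35 higher, 14 lower). An unadjusted p below 0.05 was reached by 3 members (*Gria2*, *Grik1* and *Grik5*) and by 17.5% of genes. At an adjusted p below 0.05 with any FC there were 0 members and 0.549% of genes. The groups were apart for 1 member, *Gria2*, beside 10% of genes. *Gria2* was at 606, 527, 544 and 513 CPM in the non-addicted rats 9, 11, 12 and 13, all above the highest MA24 rat at 499 CPM. Its log2FC was 0.27 ± 0.10, for which edgeR's test gave an adjusted p of 0.183. The two-sided exact permutation test gave p = 0.0286, which only repeats that the groups were apart. *Grik1* had the largest log2FC, 0.64 ± 0.26 (adjusted p = 0.225). *Gria1*, *Gria3* and *Gria4* had log2FC values of 0.16 ± 0.11, 0.11 ± 0.09 and 0.12 ± 0.10. *Grik2* (0.05 ± 0.10) and *Grik4* (−0.14 ± 0.14) also stayed within 2 SE of 0. Over the 9 members the median log2FC was 0.12 and 2 were below 0, beside a median of 0.0031 and 49.7% below 0 over all genes tested.

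The balance between subunits was followed as the log2 ratio of each AMPA receptor gene to *Gria2* and of each kainate receptor gene to *Grik2* in the same rat. These ratios do not depend on library scaling. The *Grik3*/*Grik2* ratio was −0.91 ± 0.47 (SD, n = 4) in MA12, −1.97 ± 0.66 in MA24 and −1.60 ± 0.65 in non-addicted rats. The *Grik5*/*Grik2* ratio was 2.82 ± 0.28 in MA12, 3.34 ± 0.35 in MA24 and 2.97 ± 0.24 in non-addicted rats. Although both moved as the single genes did, the groups overlapped. The mean *Gria1*/*Gria2* ratio differed from that in MA12 by −0.26 in MA24 and by −0.38 in non-addicted rats, with group SDs of 0.18 to 0.26 (n = 4 each). Of the 3 ratios to *Gria2*, 0 were apart between groups in any comparison, beside 6.35%, 9.84% and 22.3% of genes so divided for MA24 vs. MA12, non-addicted vs. MA12 and non-addicted vs. MA24. Of the 4 ratios to *Grik2*, 0 were apart, beside 4.96%, 3.1% and 7.18% of genes.

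Across the 12 rats, *Gria1* and *Grik3* varied together, although one encodes an AMPA and the other a kainate receptor subunit. Among the 36 pairs of members, with Pearson's r from −0.70 to 0.93, theirs was the highest (r = 0.93, permutation p = 3e-05; Spearman's rho = 0.91, p = 7e-05). It was 0.81 without the lowest rats (MA24 rat 14N and non-addicted rat 9) and 0.87 over deviations from the group means. Among the 10756 genes with a mean count of at least 50, 0.483% correlated as well with *Gria1* and 0.939% as well with *Grik3*. *Gria1* and *Gria2* had r = 0.02 (permutation p = 0.950). *Gria3* and *Gria4* had r = 0.81 (permutation p = 0.00212) and rho = 0.60 (p = 0.0439), and r = 0.54 without MA24 rat 16N and MA12 rat 21. *Gria2* and *Grik2* had r = 0.69 (permutation p = 0.0129) and rho = 0.65 (p = 0.0257), 0.66 without MA24 rat 16N and non-addicted rat 9, and 0.80 over deviations from the group means. The lowest r was that of *Gria3* and *Grik5*, −0.70 (permutation p = 0.0111; rho = −0.71, p = 0.0131). It was −0.24 without MA24 rat 16N and MA12 rat 21, the rats farthest from the median of *Gria3*, and −0.40 over deviations from the group means. These p-values are not adjusted for the 36 pairs. The permutations ran over all 12 rats regardless of group, so differences between the groups enter these p-values.

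**Figure D3:**
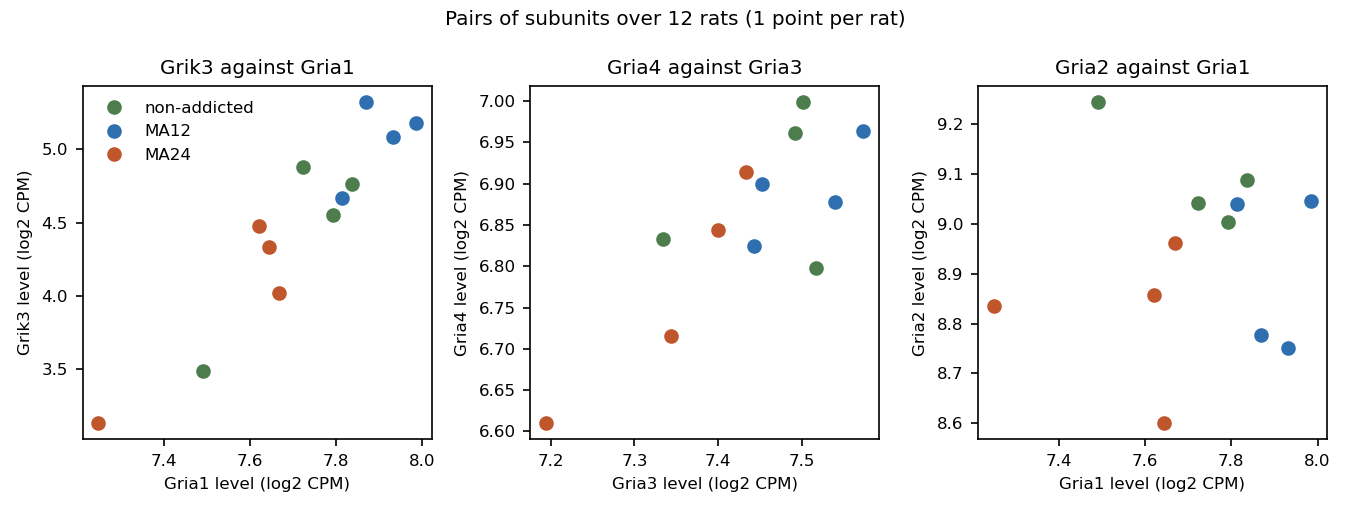
Levels (log2 CPM) of pairs of subunit genes, 1 point per rat, coloured by group. *Grik3* follows *Gria1* over the 12 rats (r = 0.93), *Gria4* follows *Gria3* less closely (r = 0.81), and *Gria2* shows no relation to *Gria1* (r = 0.02).

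Among the members, the levels of *Gria1*, *Grik3* and *Grik5* moved most closely with the main axis of variation. Over the 12 libraries, which the axis and the genes share, r with the axis was 0.90 for *Gria1*, 0.87 for *Grik3* and −0.82 for *Grik5*. A correlation of at least that size was found for 2.10%, 4.00% and 7.46% of the genes that define the axis. For the other members r with the axis was 0.69 (*Grik1*), 0.51 (*Gria3*), 0.30 (*Gria4*), 0.27 (*Gria2*), 0.23 (*Grik4*) and 0.06 (*Grik2*). Sizes of at least these were found for 20.5% (*Grik1*) to 92.2% (*Grik2*) of the genes that define the axis. The axis also separated all MA24 from all MA12 rats, and its part in the differences of *Gria1*, *Grik3* and *Grik5* was not tested. The genes whose level was most like that of *Grik3*, by Pearson's r over the 12 libraries and 10756 genes, were *Cdc42bpa* (0.979), *Myo5a* (0.979) and *Glg1* (0.976). They encode a kinase that acts on the actin cytoskeleton, a myosin motor of vesicle transport and a Golgi glycoprotein.

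Partner genes of the receptors were read from 5 lists with 48 symbols, of which 44 were in the table. For MA24 vs. MA12, 39 were tested and 1 was a DEG, *Adarb2*, beside 2.45% of all genes tested. An adjusted p below 0.05 was reached by 4 of the 39 with edgeR, beside 5.16% of all genes tested. DESeq2 put 10 below that limit and called 1, *Adarb2*, and its share over all genes at that limit is not given here. An unadjusted p below 0.05 (edgeR) was found for 14, beside 23.6% of all genes tested. A log2FC below 0 was found for 29 and above 0 for 10, beside 51.7% below 0 over all genes tested. The median was −0.19, beside −0.02. Among the auxiliary subunits of AMPA receptors (10 tested), *Cacng2* was lower. It encodes stargazin, which brings AMPA receptors to the synapse, and it was at 17.9–20.5 CPM in MA12 and 10.9–15.8 CPM in MA24. Its log2FC was −0.55 ± 0.14 (adjusted p = 0.0260, edgeR). *Shisa7*, another auxiliary subunit, had 0.30 ± 0.10 (adjusted p = 0.0882).

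Among the 4 auxiliary proteins of kainate receptors, *Neto2* was lower. Its product slows the closing of kainate receptors and binds subunits such as that of *Grik2*. *Neto2* was at 82.5, 64.1, 87.6 and 79.2 CPM in the MA12 rats 21, 31, 4N and 7N and at 59.8, 56.9, 58.1 and 52.5 CPM in the MA24 rats 9N, 14N, 15N and 16N. The groups did not overlap, as for 15.6% of all genes tested. The log2FC of *Neto2* was −0.46 ± 0.11 (adjusted p = 0.0202, edgeR). *Neto1*, its close relative, had −0.17 ± 0.10 (adjusted p = 0.337).

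*Grid1*, a delta receptor gene related in sequence to the subunits but binding cerebellin family proteins, was also lower, at 71.4–81.1 CPM in MA12 and 46.1–63.9 CPM in MA24. Its log2FC was −0.41 ± 0.11 (adjusted p = 0.0374, edgeR). In the fit above *Cacng2*, *Neto2* and *Grid1* stayed below an FC of 1.5. Over 17 other settings, the adjusted p of *Cacng2* lay between 0.0079 and 0.124 and was below 0.05 in 11. That of *Neto2* lay between 0.0034 and 0.0630 (below 0.05 in 13) and that of *Grid1* between 0.0136 and 0.148 (in 10). Without MA24 rat 16N *Cacng2* passed both thresholds (log2FC −0.66, adjusted p = 0.0241, edgeR). With the suffix N as a covariate its log2FC was −0.59 (adjusted p = 0.0943, edgeR), past the FC limit only. Of the 20 genes of assembly, trafficking and scaffold tested, 0 passed an adjusted p of 0.05. *Cpt1c*, which acts in the assembly of AMPA receptors, had 0.31 ± 0.09 (adjusted p = 0.0575), and *Lrrtm2*, a synaptic adhesion protein, −0.36 ± 0.11 (adjusted p = 0.0623).

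Among the 3 ADAR genes, *Adarb1*, whose enzyme edits the Q/R site of the *Gria2* transcript, had a log2FC of 0.26 ± 0.11 for MA24 vs. MA12 (adjusted p = 0.156, edgeR). *Adarb2*, a family member without known editing activity, was lower by −1.24 ± 0.34 (adjusted p = 0.0381, edgeR). It was at 6.60–8.84 CPM in MA12 and 0.94–5.72 CPM in MA24, the lowest being rat 14N with 19 counts. This call was lost under 10 of 17 other settings, including the fit without MA12 rat 21 (adjusted p = 0.0934) or 31 (0.0606) and without MA24 rat 14N (0.0543), 15N (0.0915) or 16N (0.0709). Editing itself was not measured.

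**Figure D4:**
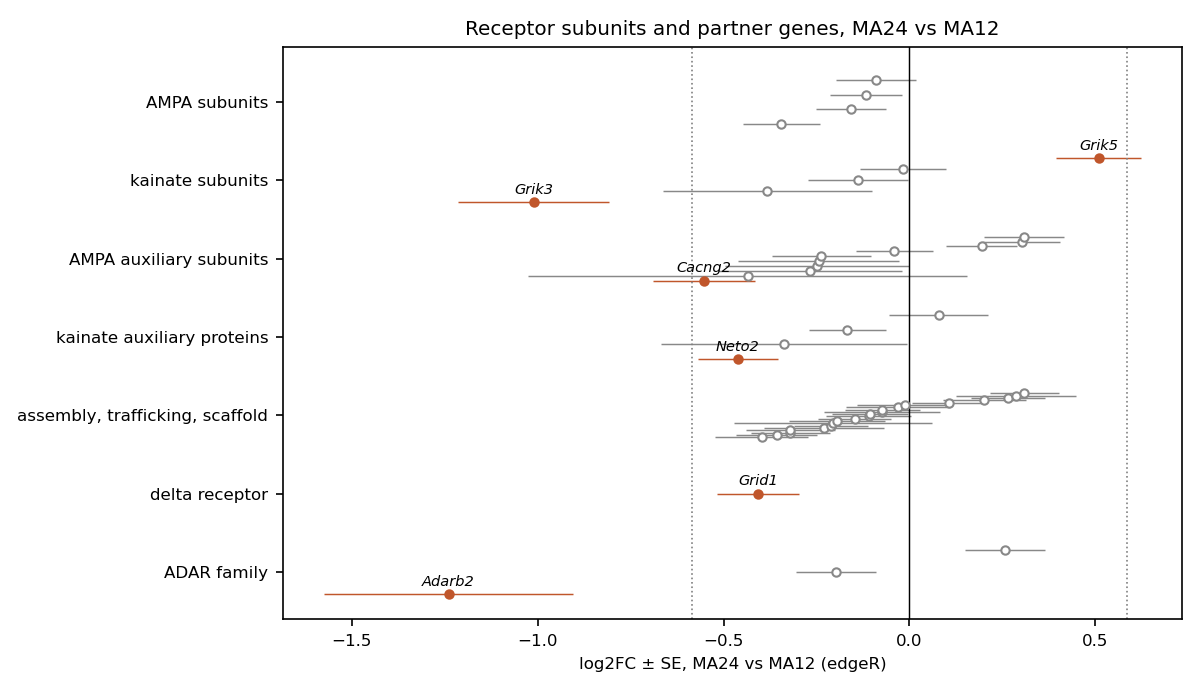
Log2 fold change ± SE (edgeR) of the subunit genes and of their partner genes for MA24 vs. MA12, 1 point per gene shown, grouped by list, with dotted lines at an FC of 1.5. Filled points have an adjusted p below 0.05, and of these only *Grik3* (−1.01) and *Adarb2* (−1.24) lie beyond an FC of 1.5.

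In both comparisons with non-addicted rats, 38 partner genes were tested and 0 were DEGs with edgeR, beside 0.251% (vs. MA12) and 0.456% (vs. MA24) of all genes. An unadjusted p below 0.05 was found for 9 (vs. MA12) and 10 (vs. MA24), a level that 12.3% and 17.5% of all genes reached. DESeq2 called 1 for non-addicted vs. MA12, *Shisa8*, an auxiliary subunit of AMPA receptors. *Shisa8* was at 3.90–4.79 CPM in non-addicted and 6.44–10.1 CPM in MA12 rats, with a log2FC of −0.87 ± 0.20 and adjusted p of 0.0798 (edgeR) and 0.0105 (DESeq2). *Cacng2* was at 12.8–14.1 CPM in non-addicted rats, below all MA12 rats and within the MA24 range, with a log2FC of −0.49 ± 0.12 against MA12 (adjusted p = 0.0810, edgeR). Levels of non-addicted and MA12 rats did not overlap for 7.1% of all genes tested. DESeq2 called 0 partner genes for non-addicted vs. MA24. There *C1ql2*, a synaptic organizer that binds kainate receptors, had the smallest adjusted p of its list, 0.137, with a log2FC of −0.41 ± 0.13.

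The other partner genes with the smallest p of their lists did not pass the test in these comparisons (edgeR). Against MA12, *Neto2* had a log2FC of −0.25 ± 0.11 (adjusted p = 0.335) and *C1ql2* of −0.34 ± 0.13 (adjusted p = 0.308). *Cpt1c* had 0.20 ± 0.09 (adjusted p = 0.387), *Olfm1*, a secreted synaptic protein, −0.19 ± 0.10 (adjusted p = 0.459) and *Grid1* −0.34 ± 0.09 (adjusted p = 0.138). *Adarb2* had −0.90 ± 0.27 (adjusted p = 0.149), its 1.67–5.04 CPM lying below all MA12 rats, and *Adarb1* 0.20 ± 0.11 (adjusted p = 0.501). Against MA24, *Cnih2*, an auxiliary subunit that slows AMPA receptor gating, had −0.28 ± 0.10 (adjusted p = 0.163), *Shisa8* −0.62 ± 0.22 (adjusted p = 0.163) and *Neto2* 0.21 ± 0.10 (adjusted p = 0.256). *Akap5*, which anchors kinases near AMPA receptors, had 0.34 ± 0.12 (adjusted p = 0.179), and *Nptx1*, a pentraxin that clusters AMPA receptors, 0.41 ± 0.17 (adjusted p = 0.229). *Grid1* (0.07 ± 0.11), *Adar* (0.24 ± 0.11) and *Adarb2* (0.33 ± 0.40) had adjusted p of 0.768, 0.275 and 0.682.

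Markers of other cell types moved in places with these comparisons. For MA24 vs. MA12, 1 of 7 interneuron markers (*Nos1*), 1 of 6 astrocyte markers (*Slc1a2*), 1 of 7 vascular markers (*Rgs5*) and 1 of 5 thalamic markers tested (*Prkcd*) were DEGs, each lower in MA24. Of the projection neuron (11 tested) and cortical markers (4 tested) 0 were, beside 2.45% of all genes tested. A log2FC above 0 was found for 4 of the interneuron, 2 of the astrocyte, 2 of the vascular and 0 of the thalamic markers. The same was found for 5 of 6 oligodendrocyte and 4 of 6 microglial markers. It was found for 1 of 5 oligodendrocyte precursor markers and 0 of 5 tested markers of choroid plexus and ependyma. At an adjusted p below 0.05 with any FC, the projection neuron marker *Pdyn* was lower in MA24 as well, with a log2FC of −0.57 (adjusted p = 0.00838, edgeR). Of the 11 projection neuron markers tested, 7 had a log2FC below 0 and 4 above, with a median of −0.07. The summed level of all 12 overlapped, at 15974–20235 CPM in MA12 and 18698–20682 CPM in MA24. The summed cortical markers overlapped, at 19.8–26.2 CPM in MA12 and 14.8–27.6 CPM in MA24, and rat 14N had the lowest sum. Single cortical markers differed in direction, with 2 above 0 and 2 below. *Slc17a7* had a log2FC of 1.03 ± 0.33 (adjusted p = 0.0690, edgeR), at 2.31–3.05 CPM in MA12 and 2.56–9.55 CPM in MA24. *Cux2* had −0.45 ± 0.16 (adjusted p = 0.101, edgeR). For non-addicted vs. MA12, *Pdyn*, a projection neuron marker, and *Kdr*, a vascular marker, were lower, as was *Pdgfrb*, another vascular marker, at an FC below 1.5. The log2FC was below 0 for all 7 vascular, all 6 oligodendrocyte and all 5 oligodendrocyte precursor markers. It was also below 0 for 10 of 12 projection neuron, 5 of 6 astrocyte and 5 of 6 microglial markers. It was above 0 for 5 of 6 markers of choroid plexus and ependyma. For non-addicted vs. MA24, 2 of 7 vascular markers were lower and 2 of 6 markers of choroid plexus and ependyma higher, beside 0.456% DEGs among all genes. *Mbp*, an oligodendrocyte marker, was lower at an FC below 1.5 (log2FC −0.53, adjusted p = 0.0443, edgeR). The log2FC was below 0 for all 7 vascular, 6 oligodendrocyte and 6 microglial markers and above 0 for all 6 of choroid plexus and ependyma. It was below 0 for 9 of 12 projection neuron markers and above 0 for 5 of 6 thalamic markers tested. Summed levels did not overlap for oligodendrocyte (11664–17294 CPM in non-addicted, 18089–21238 CPM in MA24) or vascular markers (327–464, 530–568 CPM). Nor did they for striatal interneuron (335–362, 369–433 CPM) or choroid plexus and ependyma markers (32.6–77.4, 20.6–28.6 CPM). Levels of single genes did not overlap for 10% of all genes tested. The part of these cell types in the levels of the receptor genes was not tested.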

How the data were processed

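Striatal RNA of 12 rats was sequenced as paired-end poly-A libraries. The authors used cutadapt 1.18 for trimming, STAR 2.7.0e for alignment to rn6 and featureCounts for counting, and deposited the raw counts per gene and rat. HTSeq 0.12.4 is also named in the submitters' processing notes. Strand and multi-mapping settings are not given in the sources used here. In each comparison of 8 libraries, a gene had to average more than 4 counts, the 15% of genes with the lowest log2 CPM variance were removed, and edgeR 4.0.16 (R 4.3.3) compared the groups by TMM and the quasi-likelihood test, with Benjamini-Hochberg adjustment over all genes tested. The SE was taken from the log2FC and the F statistic. The filters are a reading of those in the methods. The fit was tested on simulated data. Levels in log2 CPM used a prior count of 2, and correlations 100000 permutations. Total counts, between 17908962 and 23850284 per rat, leave counting error small except for genes such as *Grik1*. The 18 pairs of rats within groups differed by more than sampling noise (chi-square per degree of freedom 9.72 to 28.0), so each rat was 1 replicate. Alternatives were DESeq2 1.42.0, the likelihood ratio test, RLE factors, other filters, all 3 groups in the fit, the rat number suffix N (as a covariate or a restriction) and each rat left out. The fit with the suffix as a covariate held all 3 groups. The genes named are all members, each called partner gene and otherwise the partner genes with the smallest p of each list. One further partner gene is not reported here. For each member that is a DEG, the 3 genes most like it are named. Members, lists and tests were chosen with earlier results of these data known, and the main axis, pairs of members and promoters were added after the members' values were seen. Figures were drawn with matplotlib 3.10.9.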

Additional observations from a re-analysis of the deposited data

Results flagged for a closer look

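In 4 of 48 sets of 4 rats (the members and their ratios, by group), 1 rat stood apart from the others by Dixon's ratio of gap to range. Chance alone marks about 1 in 20 such sets, or 2.4 of 48. In MA24, rat 14N was low for *Gria1* (ratio 0.889), at 152 CPM beside 197–203 CPM in the other rats. Also in MA24, rat 16N was low for *Grik2* (0.904), at 53.6 CPM beside 64.9–66.3 CPM. In MA12, rat 7N was low for *Grik1* (0.918), at 2.43 CPM beside 4.33–4.55 CPM. Among non-addicted rats, rat 11 was low for *Gria3* (0.865), at 161 CPM beside 180–183 CPM. Each mark fell on another rat and another gene.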

How the results depend on the processing

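The number of members called for MA24 vs. MA12 was 1 under 16 of 17 alternatives (range 1 to 1 with each rat left out) and 0 with the rat number suffix N as a covariate, where *Grik3* had a log2FC of −0.97 and only 4 of all genes were called. It was 0 under all 17 alternatives for non-addicted vs. MA12, where 0 to 93 of all genes were called, and all 16 for non-addicted vs. MA24, where 0 to 187 were. Since 1 and 4 of these settings called no gene at all, 0 members says nothing there. The DEGs over all genes moved by over 1.5 times with single rats left out. The 264 of MA24 vs. MA12 became 129 without MA24 rat 14N, 151 without MA12 rat 21 and 436 without MA24 rat 9N. The 27 of non-addicted vs. MA12 became 8 to 17 without non-addicted rat 11 or 12 or MA12 rat 21, 31 or 4N, 84 without non-addicted rat 13 and 93 without MA12 rat 7N. The 49 of non-addicted vs. MA24 moved with every rat, from 0 (without non-addicted rat 12) to 187 (without rat 13). *Grik3* in MA24 vs. MA12 ranged from −1.18 (without MA24 rat 9N) to −0.80 (without MA24 rat 14N), with adjusted p (edgeR and DESeq2) from 0.000227 to 0.148, and *Grik5* from 0.40 to 0.58, with adjusted p from 0.000929 to 0.179. Of 410 log2FC values of members under alternatives, 403 kept their direction and side of the threshold and 6 turned, all of *Grik2*, close to 0. For MA24 vs. MA12 it lay between −0.096 and 0.073 with each rat left out, above 0 without MA12 rat 21 (0.021), MA12 rat 7N or MA24 rat 16N (0.048). For non-addicted vs. MA12 it lay between −0.035 and 0.134, below 0 without non-addicted rat 12 (−0.0013), MA12 rat 31 (−0.0043) or MA12 rat 4N. The causes were not tested. No paired analysis was possible because the groups share no rat numbers. The 43 to 124 counts of *Grik1* leave its differences the least precise.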
